A study of Homo sapiens with 2 samples.

Results

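Of the 934 names of mature miRs in the deposited table, 26 belong to the 5 miR clusters described here, which are known for their expression in placenta, germline and early embryonic cells. The clusters are C19MC (miR-498 and miR-512 to miR-527), miR-371 to miR-373, miR-302/miR-367, miR-506 to miR-514 and miR-888 to miR-892. Members were picked by a rule on names, but the clusters were chosen with earlier results of these data known. After the asterisk, the arm and the copy number were dropped, 25 of the 58 hairpin names of these clusters were found in the table, and the other 33 are not listed in it. The study sequenced small RNA of a human line from chronic myelogenous leukemia, K562, grown without the drug, and of K562/ADM, a resistant variant raised from it under rising doses of adriamycin (ADM, an anthracycline drug) and then kept in 1000 ng/mL. There is 1 library of each line, so every difference below is between these libraries, and no replicate check is possible.

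A miR is cut from a hairpin precursor and pairs with its target mRNAs mainly through its seed, bases 2 to 8 from the 5′ end. C19MC is a large primate-specific cluster that is paternally expressed in placenta, and miR-371 to miR-373 lies next to it. MiR-302/miR-367 and miR-371 to miR-373 are the best known miRs of human embryonic stem cells. The X-linked clusters miR-506 to miR-514 and miR-888 to miR-892 are known mainly from testis and epididymis. All of these are usually silent, or nearly so, in differentiated somatic cells.

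The sequences below are the mature forms in RefSeq (GRCh38.p14), with the seed in capitals, and all 26 names had a match there. The first set is shown because these 5 miRs are the members with a combined total of at least 10 reads, on which most of the reads rest.
miR-514: aUUGACACuucugugaguaga
miR-508-3p: uGAUUGUAgccuuuuggaguaga
miR-509-3p: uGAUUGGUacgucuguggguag
miR-520c-3p: aAAGUGCUuccuuuuagagggu
miR-512-3p: aAGUGCUGucauagcugagguc

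The next set is shown because members from 3 different clusters (C19MC, miR-371 to miR-373 and miR-302/miR-367) carry the same seed, AAGUGCU. With miR-520c-3p above, these are the 7 listed names of that seed.
miR-302a: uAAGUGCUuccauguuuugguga
miR-302b: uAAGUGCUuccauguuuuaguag
miR-302c: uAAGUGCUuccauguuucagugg
miR-373: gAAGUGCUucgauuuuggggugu
miR-520d-3p: aAAGUGCUucucuuuggugggu
miR-520e: aAAGUGCUuccuuuuugaggg

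The last set shows the same 6 letters AAGUGC moved by 1 base. MiR-526b* and miR-519d are members, and miR-20a of the miR-17-92 cluster is an abundant miR from outside the 5 clusters.
miR-526b*: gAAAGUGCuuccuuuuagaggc
miR-519d: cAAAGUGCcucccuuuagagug
miR-20a: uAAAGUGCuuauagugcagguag

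In sum the clusters were close to absent from K562 and were present at a low level in K562/ADM, with the exception of miR-371 to miR-373, where K562 had 6 reads and K562/ADM 2. Summed over the 26 names, K562 had 12 reads and K562/ADM had 180, which is 1.56 and 26.1 RPM (reads scaled to 1e6 miR reads of the library). The libraries held 7677738 and 6895193 miR reads, so that 1 read is 0.130 RPM in K562 and 0.145 RPM in K562/ADM. After scaling by the median of ratios, the summed reads were 18.4-fold higher in K562/ADM (exact 95% interval 10.3 to 36.2). More cells with these miRs and more reads per cell cannot be told apart in RNA pooled from whole cultures. Without the miR-506 to miR-514 cluster, which held most of these reads, the sum was 7 reads against 59 and the ratio was 10.3 (4.71 to 26.8). All intervals here are Clopper-Pearson intervals of the read counts and cover counting error only.

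Of the 26 names, 20 (76.9%) were seen in K562/ADM alone, 2 were seen in K562 alone, and 4 in both. Over all 934 names 11.3% had reads in K562/ADM alone, and 12.7% had reads in K562 alone. Names of the clusters have few reads, with a median of 2 over both libraries against 35 for all names. Among the 545 names with at most 69 reads, the number of the most abundant member, the shares were 19.4% for K562/ADM alone and 21.5% for K562 alone. Among the 238 names with 1 to 4 reads they were 39.9% and 35.3%, and of the 20 members with so few reads 18 were seen in K562/ADM alone and 1 in K562 alone.

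**Figure D1:**
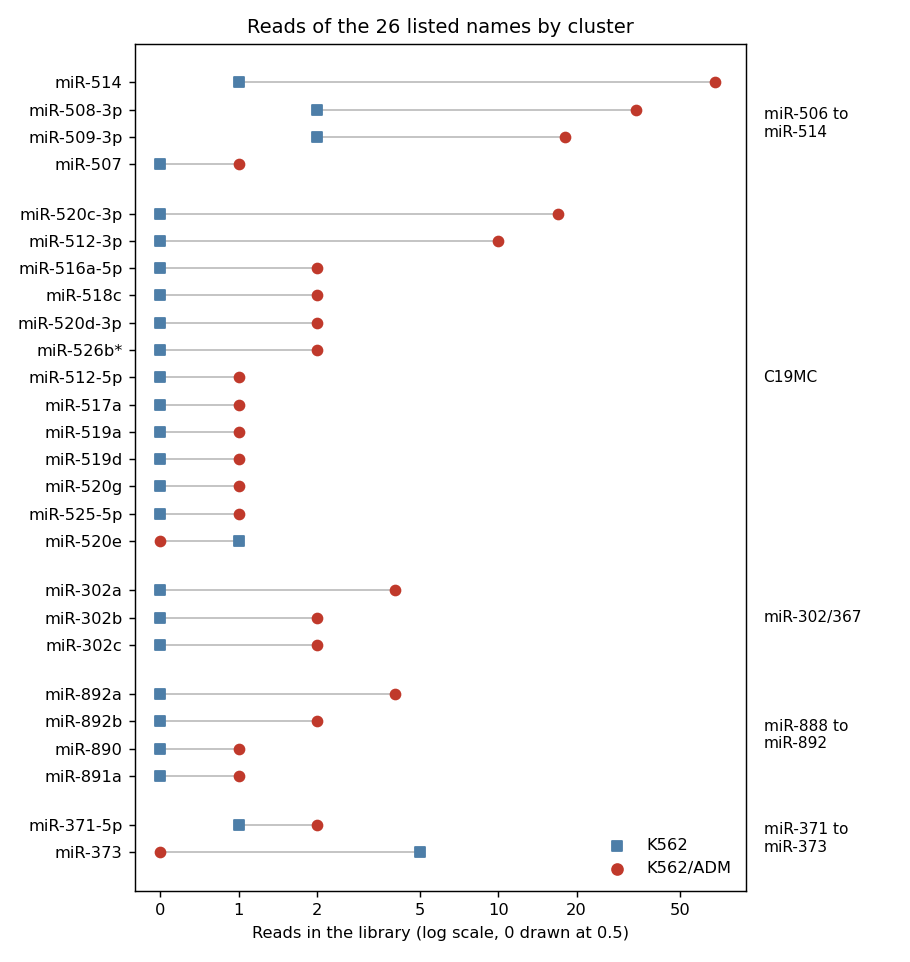
Reads of each of the 26 names in K562 (blue squares) and K562/ADM (red circles), on a log axis with 0 drawn at 0.5, grouped by cluster. The red circle lies to the right of the blue square for 24 names, and to its left for miR-520e (1 read against 0) and miR-373 (5 reads against 0).

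A call required a 2-fold difference or more together with an interval that left out 1. By this rule 5 of the 26 names (19.2%) were higher in K562/ADM, 0 were lower and 21 were not called. Over all 934 names 11.1% were called higher and 15.6% lower, and among the 545 names with at most 69 reads 8.99% and 9.17%. By a 2-fold difference alone, without the interval, 24 of the 26 were higher and 2 lower, against 25.3% and 29.4% of all names. A name with 0 reads in 1 library always passes this rule, as did 20 of the 24 and the 2 lower names. Such names are a smaller share of all names (11.3% without reads in K562 and 12.7% without reads in K562/ADM). The shares by fold alone are therefore not matched in depth. The depth also decides much of the count made with the interval. With 0 reads in K562 a name needs 5 reads in K562/ADM to be called higher, and with 0 reads in K562/ADM it needs 7 reads in K562 to be called lower. The 5 called names are the 5 with at least 10 reads, and the other 21 had 1 to 5 reads each. Of the 215 names in the table with 10 to 69 reads, 19.5% were called higher and 20.9% lower. The median log2 ratio of the 5 called names was 3.46, and that of the 215 names was 0.03. The 5 passed the minimum of 10 reads through K562/ADM, so this median is a description only.

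**Figure D2:**
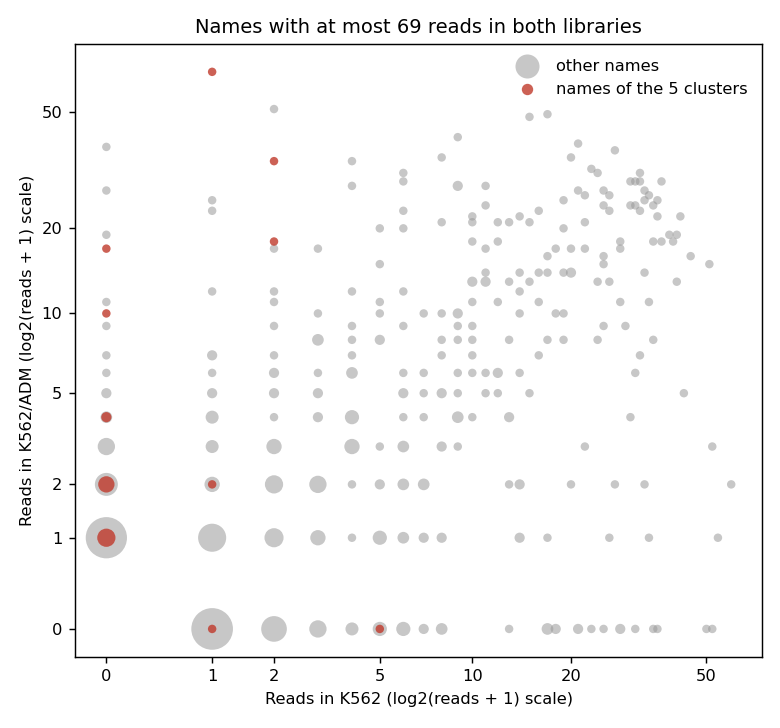
Reads of K562 along the x axis against those of K562/ADM along the y axis, both as log2(reads + 1), for the 545 names with at most 69 reads in both libraries. Each point is a pair of read numbers and its area grows with the number of names there. Of the 26 names of the clusters (red), 20 lie on the left edge at 0 reads in K562, 2 lie on the bottom edge at 0 reads in K562/ADM (miR-520e and miR-373) and 4 have reads in both, while the other names (grey) fill both sides of the diagonal.

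The cluster with the most reads was miR-506 to miR-514. On GRCh38.p14 the 14 hairpin genes that match its chosen names lie on the minus strand of the X chromosome within 95.025 kb (chrX:147189704-147284728). Of its 9 hairpin names, 4 are listed. In GENCODE, 10 of the 14 hairpins overlap an intron of a long noncoding RNA on the opposite strand, 2 an intron of a long noncoding RNA on the same strand, and 2 lie between genes. Summed over the 4 names, the cluster had 5 reads in K562 (0.651 RPM, 95% interval 0.211 to 1.52) and 121 reads in K562/ADM (17.5 RPM, 14.6 to 21.0). It was 29.6-fold higher in K562/ADM (12.4 to 92.9).

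The 3 called members of this cluster were all higher in K562/ADM. MiR-514, encoded by 3 nearly identical genes, had 1 read in K562 and 68 reads in K562/ADM, with a ratio of 83.3 (14.5 to 3337). MiR-508-3p had 2 reads and 34 reads, and a ratio of 20.8 (5.34 to 179). MiR-509-3p, also encoded by 3 genes, had 2 reads and 18 reads, with a ratio of 11.0 (2.64 to 97.9). MiR-507 had 0 reads and 1 read, too few for a fold. The intervals of miR-514, miR-508-3p and miR-509-3p overlap, so that no order of their ratios can be given. MiR-514 held 54.8% of the reads of the cluster, and without it the other names gave 4 reads against 53 and a ratio of 16.2 (5.98 to 61.7). The 4 names have 4 different seeds, and the 3 called ones differ from every mature miR in RefSeq outside the clusters by at least 7 edits.

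**Figure D3:**
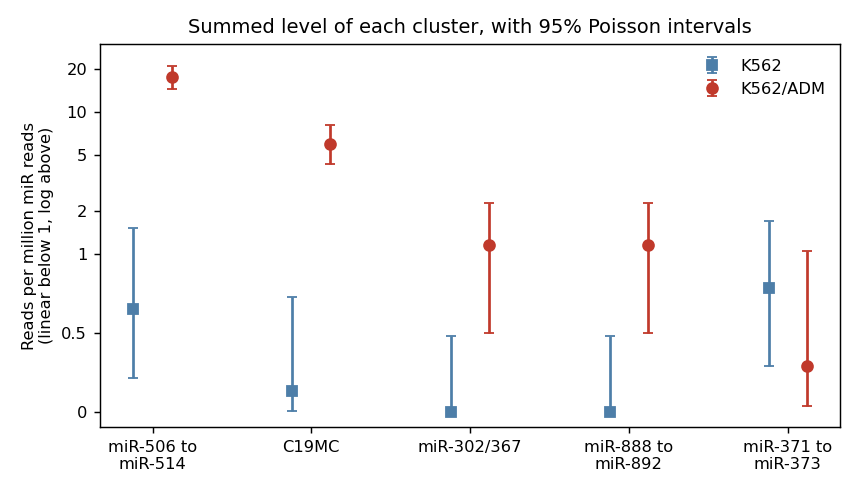
Summed level of each cluster in K562 (blue squares) and K562/ADM (red circles) in RPM, on an axis that is linear below 1 and logarithmic above. Bars are exact 95% Poisson intervals, which cover counting error only. The bars of the libraries do not overlap for miR-506 to miR-514, C19MC, miR-302/miR-367 and miR-888 to miR-892, and they overlap for miR-371 to miR-373.

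The other X-linked cluster, miR-888 to miR-892, lies 1162 kb away. The 6 hairpin genes that match its chosen names are on the minus strand within 33.6 kb (chrX:145994275-146027872). All lie between the genes annotated by GENCODE, and 4 of the 6 hairpin names are listed. No read of these 4 names was found in K562, for which the floor is 0.391 RPM (3 reads) and the upper limit of the 95% interval is 0.480 RPM, and 8 reads were found in K562/ADM (1.16 RPM, 0.501 to 2.29). The cluster was 3.27-fold higher in K562/ADM when K562 was set to the floor of 3 reads, and the lower limit of its ratio was 2.09. MiR-892a had 4 of these reads, miR-892b 2, and miR-890 and miR-891a 1 each, so that none of the names was called by itself. Without miR-892a, 4 reads remained against 0, and the sum was no longer called (lower limit 0.808).

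C19MC is the largest of the clusters. The 43 hairpin genes that match its chosen names are spread over 95.8 kb on the plus strand of chromosome 19 (chr19:53666679-53762430). The 42 that GENCODE lists lie within introns of 1 long noncoding RNA on the same strand, and 12 of the 35 hairpin names are in the table, as 13 names of mature miRs. Together they had 1 read in K562 (0.130 RPM, 0.00330 to 0.726) and 41 reads in K562/ADM (5.95 RPM, 4.27 to 8.07). The ratio was 50.2 (8.52 to 2031), whose upper limit is wide because it rests on 1 read. MiR-1283, a name of the same cluster that the choice by number leaves out, had 0 reads and 1 read, and with it the ratio was 51.4.

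Reads of C19MC in K562/ADM came from 12 names. MiR-520c-3p, of the seed AAGUGCU, was not read in K562 and had 17 reads in K562/ADM. It was 6.94-fold higher over the floor of 3 reads (lower limit of the ratio 5.05). MiR-512-3p, encoded by 2 genes, had 0 reads and 10 reads, and was 4.08-fold higher over the floor (lower limit 2.74). These were the called names of C19MC. MiR-516a-5p, miR-518c, miR-520d-3p and miR-526b* had 2 reads each in K562/ADM and none in K562. MiR-512-5p, miR-517a, miR-519a, miR-519d, miR-520g and miR-525-5p had 1 read each in K562/ADM and none in K562. The read in K562 was of miR-520e, which had none in K562/ADM. Without miR-520c-3p the cluster had 1 read against 24 and a ratio of 29.4 (4.79 to 1209), so that its difference did not rest on that name.

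Names within C19MC are close in sequence, and reads can pass from one to the other in mapping. MiR-520c-3p and miR-520e differ by 1 edit from miR-520b-3p, and miR-517a is identical to miR-517b-3p, neither of which is listed. The split between such names is therefore uncertain, while reads passed between them stay within the cluster sum. Without the names that are within 1 base of another mature miR of the clusters, C19MC had no read in K562. It was then 9.39-fold higher over the floor of 3 reads (lower limit of the ratio 7.04). MiR-512-3p is 6 edits from the nearest miR elsewhere, miR-148b-5p, and miR-520c-3p is 7 edits from miR-320c.

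MiR-371 to miR-373, 25.2 kb from the end of C19MC on the same strand (chr19:53787675-53788773), went the other way in its reads but was not called. It had 6 reads in K562 (0.781 RPM, 0.287 to 1.701) and 2 in K562/ADM (0.290 RPM, 0.0351 to 1.05), a ratio of 0.408 (0.0403 to 2.28). MiR-373 had 5 reads in K562 and none in K562/ADM, and miR-371-5p had 1 and 2 reads. MiR-372 is not listed. The name miR-373 alone decides the direction, since without it the sum had a ratio of 2.45 (0.128 to 144.5).

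MiR-302/miR-367 is the most compact cluster, with 5 hairpin genes within 0.684 kb on the minus strand of chromosome 4 (chr4:112647874-112648557). The 4 of them that GENCODE lists lie in introns of LARP7, which runs in the opposite direction, and in exons of MIR302CHG, the host RNA on the same strand. MiR-302a, miR-302b and miR-302c are listed, and miR-302d and miR-367 are not. None of the 3 had a read in K562, and they had 4, 2 and 2 reads in K562/ADM, in all 1.16 RPM (0.501 to 2.29). The sum was 3.27-fold higher over the floor of 3 reads, with a lower limit of 2.09, and it was called although none of its names was. Without miR-302a, 4 reads were left against 0, and the call was lost (lower limit 0.808).

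The clusters can also be set against each other by an odds ratio, which does not depend on how the libraries are scaled. The conditional estimate is given here, which can lie nearer to 1 than the quotient of the ratios printed above. Among the 10 pairs, 4 odds ratios had exact intervals that excluded 1, and all 4 involve miR-371 to miR-373. For C19MC over miR-371 to miR-373, its neighbour on the chromosome, the odds ratio was 92.2 (7.31 to 5774). For miR-371 to miR-373 over miR-506 to miR-514 it was 0.0154 (0.00123 to 0.111), which is 64.9 when taken the other way. Against miR-302/miR-367 and against miR-888 to miR-892 the odds ratio of miR-371 to miR-373 was 0, with an upper limit of 0.473 in both cases. Without miR-373 alone, none of the 4 intervals excluded 1, and for C19MC over miR-371 to miR-373 the odds ratio was then 16.9 (0.174 to 1645). Between C19MC and miR-506 to miR-514 the odds ratio was 1.69 (0.181 to 82.1), so that no difference between these clusters could be detected at this depth.

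**Figure D4:**
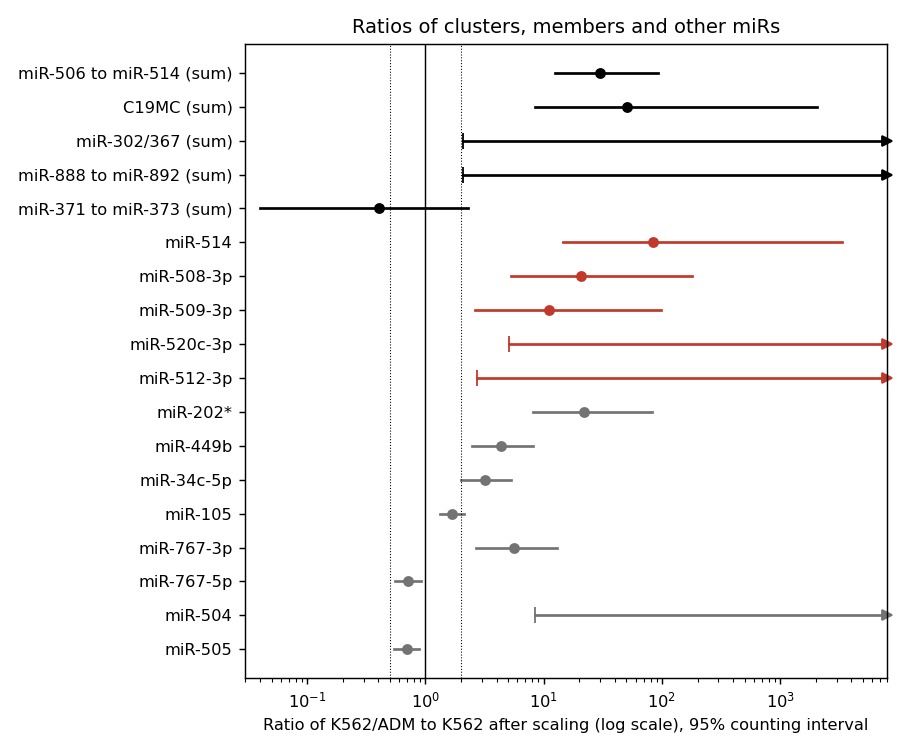
Ratio of K562/ADM to K562 after scaling, on a log axis, with exact 95% counting intervals, for the 5 clusters (black), their names with at least 10 reads (red) and 8 other miRs (grey). The solid line marks 1 and the dotted lines 2-fold differences, and an arrow marks a ratio without upper limit because K562 had 0 reads. The 5 red names lie right of the upper dotted line, while miR-371 to miR-373 spans 1, and miR-767-5p and miR-505 lie left of 1.

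Grouped by seed instead of by position, the 7 names with AAGUGCU summed to 6 reads (K562) and 27 reads (K562/ADM; ratio 5.51, 2.23 to 16.3). Within this group miR-520c-3p was called higher, and the 3 miR-302 names and miR-520d-3p had reads in K562/ADM alone. MiR-373 and miR-520e had reads in K562 alone. Their ratios had upper limits of 1.34 and 47.8 and were not called. The limit of miR-373 lies below the lower limit of miR-520c-3p (5.05), so the intervals of these names with an identical seed do not overlap. They are the extremes of the group, and miR-373 rests on 5 reads, so this is a description only. The interval of miR-520e overlaps that of miR-520c-3p. MiR-526b* and miR-519d, which share the seed AAAGUGC, had 0 and 3 reads together, too few for a fold. The 6 letters AAGUGC occur within bases 1 to 9 of 12 of the 26 names (46.2%), against 23 of the 110 mature miRs of the clusters in RefSeq (20.9%) and 31 of all 2370 (1.31%). The sets are unlike, since the 26 are names with reads. The 110 take in both arms of a hairpin and genes that the choice by name leaves out, so the shares do not measure enrichment. Summed over these 12 names, K562 had 6 reads and K562/ADM 42 (ratio 8.57, 3.63 to 24.7). The remaining names each have a seed of their own.

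MiRs outside the clusters with the related seed AAAGUGC were far more abundant in sum. Among them miR-20b (2 and 2 reads) and miR-106a (4 and 3 reads) were scarce, so the sums rest on the other names. MiR-17, miR-20a, miR-20b, miR-93, miR-106a and miR-106b, the 6 names with that seed, summed to 292571 and 176842 reads (ratio 0.740, 0.736 to 0.745), and 0 of them were called in either direction. With their asterisk forms, which do not carry the seed, the list has 12 names, of which 0 were called higher and 2 lower (miR-20a* and mir-17*). MiR-20a, whose seed is printed above, had 192316 and 93836 reads. The 42 reads of the 12 cluster names in K562/ADM are therefore few beside the 176842 reads of these 6 names.

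Other miRs known from germline and testis were compared from a list of 16 names, which includes miRs whose results in these libraries were known. Of these, 7 were called higher in K562/ADM and 0 lower, against 11.1% and 15.6% of all names. Because of how the list was chosen, this count is a description only. Most reads of the list were of miR-184, miR-135b and miR-135b*, which are also known from other tissues, with ratios of 13.0 (11.4 to 14.8), 12.2 (10.4 to 14.4) and 7.71 (6.73 to 8.86). MiR-202*, a miR of the gonads, had 4 and 71 reads (ratio 21.7, 8.13 to 82.0). MiR-449b and miR-34c-5p, relatives with a shared seed that are abundant in testis and in ciliated cells, had ratios of 4.36 (2.47 to 8.14) and 3.18 (1.98 to 5.27). MiR-105 and miR-767, from another cluster of the X chromosome within the gene GABRA3, differed by name. MiR-105 had 126 and 172 reads and was not called (1.67, 1.32 to 2.12), miR-767-5p had 170 and 99 reads (0.713, 0.551 to 0.919), and miR-767-3p from the same hairpin had 9 and 41 reads and was higher (5.58, 2.67 to 13.1).

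The other names on the same chromosomes had smaller ratios in sum. Names could be placed on 1 chromosome for 824 of the 934. For comparison, 11.1% of all names were called higher and 15.6% lower. Of the 73 other names on X, 12 were called higher and 1 lower. Their summed reads had a ratio of 1.17 (1.16 to 1.19) against 31.6 (13.2 to 99.0) for the 8 cluster names there. Of the 38 other names on chromosome 19, 7 were higher and 4 lower, with a ratio of 1.62 (1.59 to 1.65) against 7.52 (3.36 to 19.8) for the 15 cluster names. Of the 18 other names on chromosome 4, 4 were higher and 0 lower, and their ratio was 0.789 (0.742 to 0.839). Single names weighed on these sums: miR-452 held 31.5% of reads on X, miR-27a 38.2% on chromosome 19 and miR-576-3p 69.3% on chromosome 4. In a list of 9 other X-linked names, 2 were called higher and 0 lower. MiR-504 had 0 and 27 reads and was 11.0-fold higher over the floor of 3 reads (lower limit 8.36). MiR-503 had 123 and 275 reads (2.74, 2.21 to 3.41). MiR-505 had 196 and 111 reads (0.694, 0.544 to 0.880) and was not called.

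Both libraries carried the miRs of the labelled cells. MiR-142 and miR-223, miRs of blood cells, had 366828 and 520050 reads, and the erythroid miR-144, miR-451 and miR-486 had 97069 and 73815, with 0 of these 11 names called. Among miRs of other cell types, the mesenchymal list had 3256 and 7501 reads with 2 of 7 names higher (miR-143 and miR-145), while miR-199a-5p and miR-214 were not read in K562 and had 2 and 3 reads in K562/ADM. The neural list had 14013 and 25390 reads with 1 of 4 names higher (miR-9), and miR-124 had 1 and 2 reads. The epithelial list had 963 and 823 reads with 1 of 9 names higher (miR-200a), the muscle list 10 and 24 reads with 1 of 3 higher (miR-1), and the liver miR-122 had 4 reads in each library. The part of these miRs in the results on the clusters was not tested.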

How the data were processed

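Small RNA of K562 and K562/ADM cells (1 library each) was sequenced by the authors. They grouped identical reads, left out those seen once, and used miRanalyzer (Bowtie against miRBase 16) for the others. The deposited signal holds read counts over a size factor from DESeq. The submitters' processing notes also name CASAVA 1.7.0 and hg18. Deposited folds, log2 folds and p-values are the authors' comparisons and were not used. In units of the smallest nonzero value of its column, whole reads came out for 100% of values (relative tolerance 0.001). Names with 1 read remain (100 in K562 and 124 in K562/ADM) although single reads were left out. How that step touches names with few reads was not tested.

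Ratios were scaled by the median of ratios (factor 0.817). Each carries an exact 95% Clopper-Pearson interval from the share of reads in K562/ADM, and levels carry Poisson intervals. Folds against 0 reads use a floor of 3 reads per library. No p-value was computed, since 1 library per line leaves no residual degrees of freedom. Names with at least 10 reads, and up to 5 with fewer where a cluster or seed group has no other, were to be named. The other members are printed so that each is accounted for, and were named after their values were seen. The members and lists were chosen with earlier results of these data known. Names were matched to RefSeq (GRCh38.p14) for sequences and positions, and to GENCODE on GRCh37 for host genes. Edits are base changes, insertions or deletions. Alternatives were other scalings, read minimums, call rules, arms and names left out. The intervals and calls were tested on simulated Poisson counts with known ratios, which hold no variation between cultures or libraries and no removal of single reads. Scaling factors of the alternatives came from edgeR 4.0.16 in R 4.3.3. The rest was done with scipy 1.17.1, numpy 2.4.6 and pandas 2.3.3 in Python 3.11.15, and plots with matplotlib 3.10.9.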

Additional observations from a re-analysis of the deposited data

How the results depend on the processing

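The 5 called names were called higher under every scaling tried (total reads, TMM, upper quartile, and the median of ratios without 14q32 or with at least 50 reads in each library). Upper-quartile scaling raised every log2 ratio by 0.74, and 7 names were then called higher. Called by fold alone, which a name without reads in a library always passes, 24 names were higher and 2 lower. The median log2 ratio of 3.46 became 4.21 under upper-quartile scaling, 2.41 with at least 1 read (over the 8 names with over 3 reads in either library) and 4.38 with at least 20 reads. Without the most abundant name of each cluster, the folds of miR-302/miR-367 and miR-888 to miR-892 over the floor fell to 1.63 each and were not called. The ratio of miR-371 to miR-373 turned to 2.45, and its odds ratios lost their calls: C19MC over it 10.0, it over miR-506 to miR-514 0.160, and upper limits of 29.2 over miR-302/miR-367 and over miR-888 to miR-892. The other 80 values that answer a comparison kept their direction and call. Chosen after seeing the data were the addition of miR-1283 to C19MC and the removal of miR-373 alone, which gave odds ratios of 16.9 and 0.0872 and upper limits of 14.6 for the same pairs, all without a call. Depth limits the rest: 21 of the 26 names had under 10 reads. No paired analysis was possible because each cell line has 1 library.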
